A study of Drosophila melanogaster with 16 samples.

Results

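Mitochondria carry their own ribosome, which makes the few proteins encoded by the mitochondrial genome. In animals these are core subunits of the respiratory chain and of the ATP synthase. Its RNAs come from the mitochondrial genome, but its proteins are encoded in the nucleus, made in the cytosol and imported. One set of these proteins has counterparts in bacterial ribosomes, and the other has none and was added in the mitochondrial lineage. The large subunit forms peptide bonds and holds the exit tunnel of the new protein, and the small subunit binds the mRNA and decodes it. In Drosophila the genes are named mRpL for the large and mRpS for the small subunit.

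The members described here are the probe sets whose only gene symbol in the platform annotation begins with mRpL or mRpS and a number. The rule found 66 of the 13966 probe sets of the table, and it used no measured value. They name 64 genes, 43 of the large subunit with 45 probe sets and 21 of the small subunit with 21. By their numbers, 26 large and 10 small subunit genes were counted as bacterial-type (L1 to L36, S1 to S21). The other 17 large and 11 small subunit genes (L37 and above, S22 and above) were counted as mitochondrion-specific. These classes only approximate the origin, and some higher numbers, such as mRpL47 and mRpS24, belong to proteins with bacterial counterparts. The proteins counted as S12 and S15 are encoded by tko (technical knockout) and bonsai, whose symbols lie outside the rule, and both are described beside the members.

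RNA of dissected whole testes of adult Drosophila melanogaster was measured on 16 single-channel arrays. Of these, 6 held testes of Os+bgcn- males, 5 testes of bgcn- males and 5 testes of wild-type males. Each Os+bgcn sample was made of 150 testes, each bgcn sample of 750 and each wild-type sample of 150, per the labels, so that every sample is a pool of animals, and the design text calls the samples biological replicates. The product of bgcn (benign gonial cell neoplasm) is needed for male germ cells to stop dividing and become spermatocytes, and testes without it fill with early germ cells. Os (outstretched) encodes the ligand of the JAK-STAT pathway that acts on the stem cells at the tip of the testis. The bgcn alleles, the genetic background, the way in which Os was supplied and the age of the males are not stated in the labels. For the wild-type samples the extraction protocol names bgcn- testes, while titles, sources and descriptions name wild type.

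Defining markers separated both mutants from wild type. The summed signal of 15 spermatid probe sets was 510.9 to 991.4 in Os+bgcn and 467.9 to 1296.2 in bgcn, against 173900 to 200140 in wild type, and 15 of 15 were lower in each mutant. Of 10 early germline probe sets 9 were higher in each mutant than in wild type, and their median log2 signal was 9.79 to 9.97 in Os+bgcn, 8.06 to 8.73 in bgcn and 5.39 to 5.84 in wild type. In a whole testis, fewer cells of a type and less RNA per cell cannot be told apart, and every change below is a change of signal per array. Signal of 16 accessory gland probe sets, a tissue next to the testis, also differed, with sums of 569.8 to 3928.7 in Os+bgcn, 4941.5 to 27529 in bgcn and 8138.4 to 32266 in wild type. Summed signal of 8 cyst cell probe sets was 2120.2 to 2974.4 in Os+bgcn and 756.4 to 858.8 in bgcn, against 282 to 406.9 in wild type. That of 17 muscle sheath probe sets was 1306.9 to 2194.6 in Os+bgcn and 3202.7 to 3986.9 in bgcn, against 832 to 1220.3 in wild type, and that of 7 hemocyte probe sets was 1085.4 to 2015.4 in Os+bgcn and 2084.6 to 2473.7 in bgcn, against 1386.3 to 1798.1 in wild type. Of 13 spermatocyte probe sets 7 were tested and 6 were lower in each mutant. The median signal of all probe sets was 66.95 to 74.5 on Os+bgcn arrays, 67.8 to 74.2 on bgcn arrays and 56.2 to 59.4 on wild-type arrays.

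Most mitochondrial ribosomal protein probe sets had higher signal in both kinds of mutant testes than in wild type. The median signal of the members on an array, taken as log2(signal + 18.8), was 8.16 to 8.37 in Os+bgcn, 8.02 to 8.28 in bgcn and 6.80 to 7.16 in wild type, so that every mutant array lay above every wild-type array. Their summed signal was 20776 to 23404 in Os+bgcn and 18823 to 20892 in bgcn, against 8345.5 to 9496.6 in wild type.

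**Figure D1:**
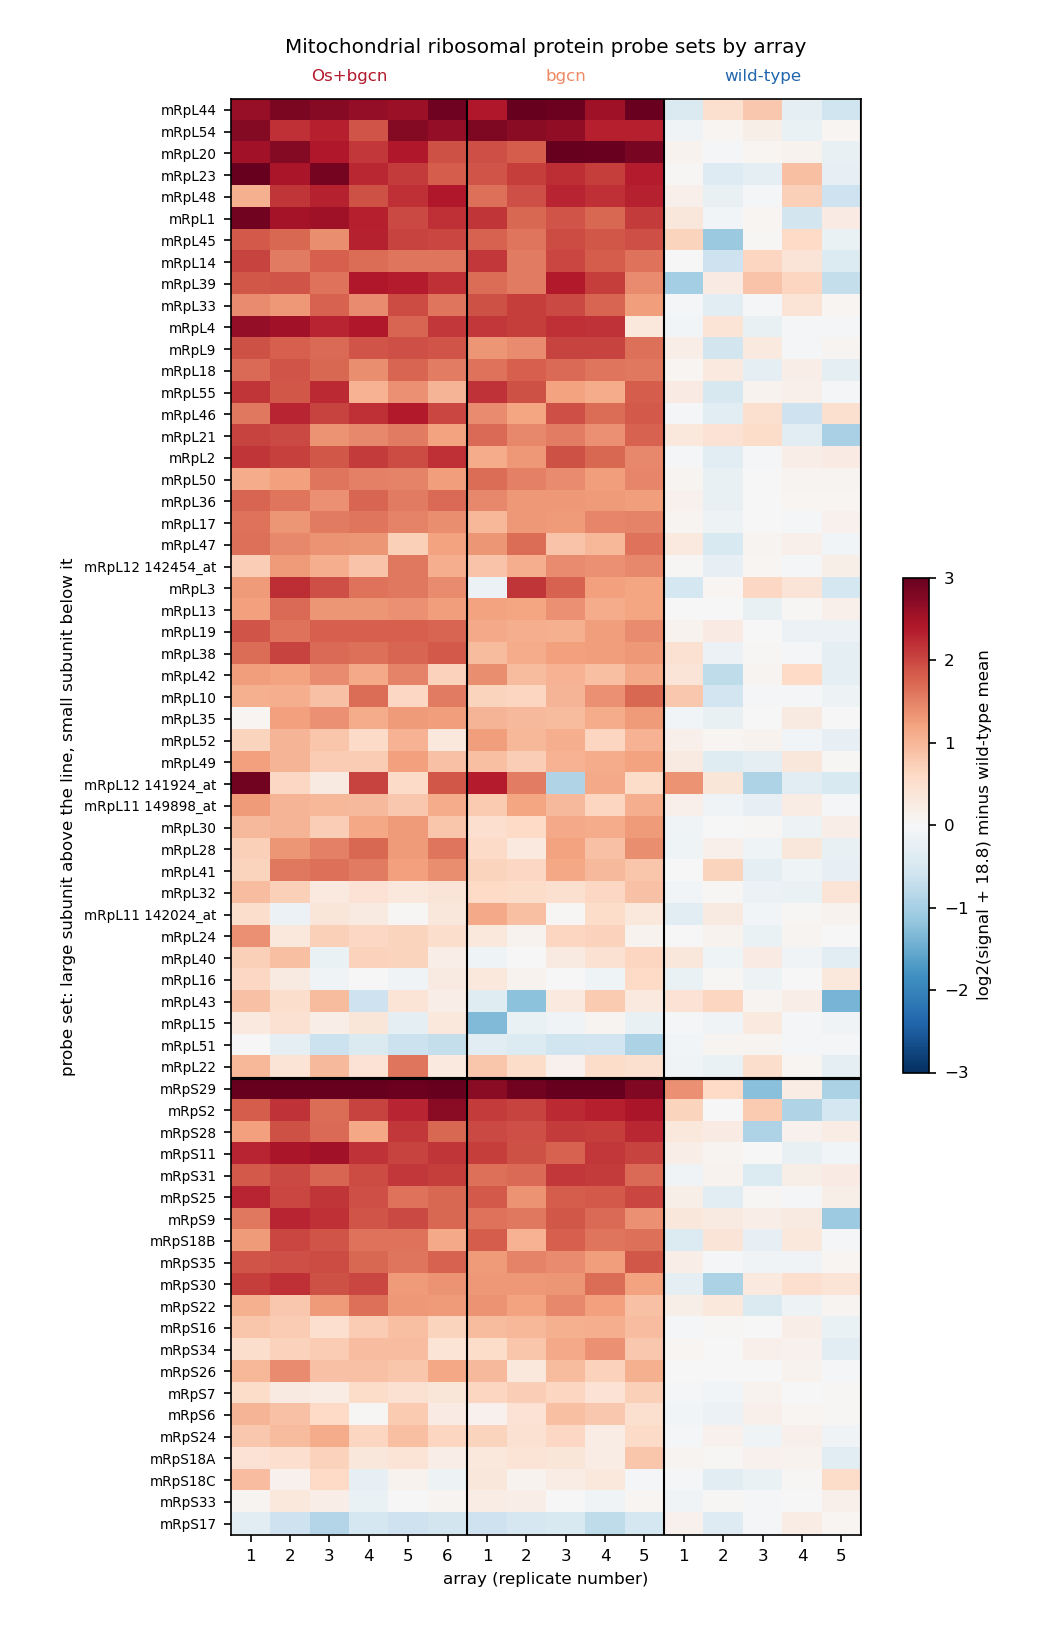
Each row is 1 member probe set (45 of the large subunit above the line, 21 of the small subunit below it) and each column 1 array, by genotype and replicate number. Colour gives log2(signal + 18.8) minus the wild-type mean of that row, cut at 3 above and below. Nearly all rows are red on the 6 Os+bgcn and 5 bgcn arrays and pale on the 5 wild-type arrays at the deposited scaling (members' medians turn to -0.12 in Os+bgcn and -0.79 in bgcn with centring on cytosolic ribosomal proteins); mRpS17 and mRpL51 are blue on most mutant arrays.

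Changes were tested with limma on log2(signal + 18.8) over the 10422 probe sets whose signal was above 42.9 on at least 5 arrays, with p-values adjusted over all of them and a threshold of 0.05. The fold changes are on this log2 scale, which understates the change of dim probe sets and makes it depend on the amount added. Of the members, 65 were tested, and the probe set of mRpL22 was above the filter on 4 arrays. For 5 members no wild-type array was above the filter, so that 4 of them (mRpL4, mRpL20, mRpL41 and mRpL54) were tested only through their signal in the mutants.

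In Os+bgcn against wild type 57 members rose, 2 fell and 6 did not pass the test. Of all tested probe sets, 47.3% were called higher and 24.2% lower in this comparison, 71.4% in all. The members' median change was 1.37, with a range of -0.59 to 3.06, beside a median of 0.43 over all tested probe sets. In bgcn against wild type 55 members rose, 2 fell and 8 did not pass, beside 47.2% called higher, 22.6% lower and 69.8% in either direction over all tested probe sets. Here the median was 1.22, with a range of -0.57 to 2.91, beside 0.46 over all tested probe sets. With no filter and all 66 members in the fit, 58 were higher and 2 lower in Os+bgcn, and 55 were higher and 2 lower in bgcn. The markers given above moved with the same contrasts: in Os+bgcn against wild type 6 of 7 cyst, 5 of 12 muscle sheath and 2 of 6 hemocyte probe sets tested were higher, and in bgcn against wild type 5 of 7, 10 of 12 and 5 of 6. Their part in the members' changes, and that of the spermatid and early germline markers, was not tested.

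Both comparisons use the same 5 wild-type arrays and are therefore not independent. Side by side, 54 members were called higher in both, 3 only in Os+bgcn against wild type, 1 only in bgcn against wild type, 2 lower in both and 5 in neither. The spread of the changes among the members was narrower than in the table, with an SD of 0.75 over the members and 1.89 over all tested probe sets in bgcn against wild type. At least 1 log2 unit higher were 45 of 65 members in Os+bgcn, beside 3556 of 10422 tested probe sets. In bgcn these were 42 members, beside 3431. At least 2 units higher were 13 members in Os+bgcn, beside 1276 tested probe sets, and 8 in bgcn, beside 1029. All Os+bgcn arrays lay above all wild-type arrays on 50 member probe sets, beside 37.9% of all tested probe sets, and below them on 0, beside 20.1%. All bgcn arrays lay above all wild-type arrays on 48, beside 35.3%, and below them on 2, beside 19.3%.

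The direction of these changes held under 2 other scalings and turned under the third. The deposited values had been brought to a common trimmed mean, which was 148.4 to 149.3 on the 16 arrays. With quantile normalization the members' median change was 1.26 in Os+bgcn and 1.12 in bgcn, with 54 higher and 2 lower in each. With arrays centred on their own medians the members' median change was 1.15 in Os+bgcn and 1.00 in bgcn, with 51 higher in each, 2 lower in Os+bgcn and 3 lower in bgcn. Arrays were also centred on 37 probe sets of cytosolic ribosomal proteins, a list that itself rose by a median of 1.62 in Os+bgcn and 2.02 in bgcn. The members' median then turned to -0.12 in Os+bgcn, with 7 higher and 17 lower, and to -0.79 in bgcn, with 1 higher and 35 lower. The 1 still called higher in both mutants was mRpS29. That centring moved the median of the whole table to -1.07 in Os+bgcn and -1.56 in bgcn. Both centrings subtract 1 value per array and so leave the distance of the members' median from the table's median as it was, 0.95 in Os+bgcn and 0.76 in bgcn, and with quantile normalization this distance was 0.99 in Os+bgcn and 0.80 in bgcn. In each mutant 55 of the 65 tested members lay above the table's median change. Every statement that a gene or list rose or fell is for the deposited scaling. Where the centring on cytosolic ribosomal proteins turned a list of mitochondrial genes or a named member against wild type, its value stands beside it or with the results by processing. Under that centring no values are given for the cyst, muscle sheath and hemocyte lists or for single members between the mutants, and some of these may turn too.

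**Figure D2:**
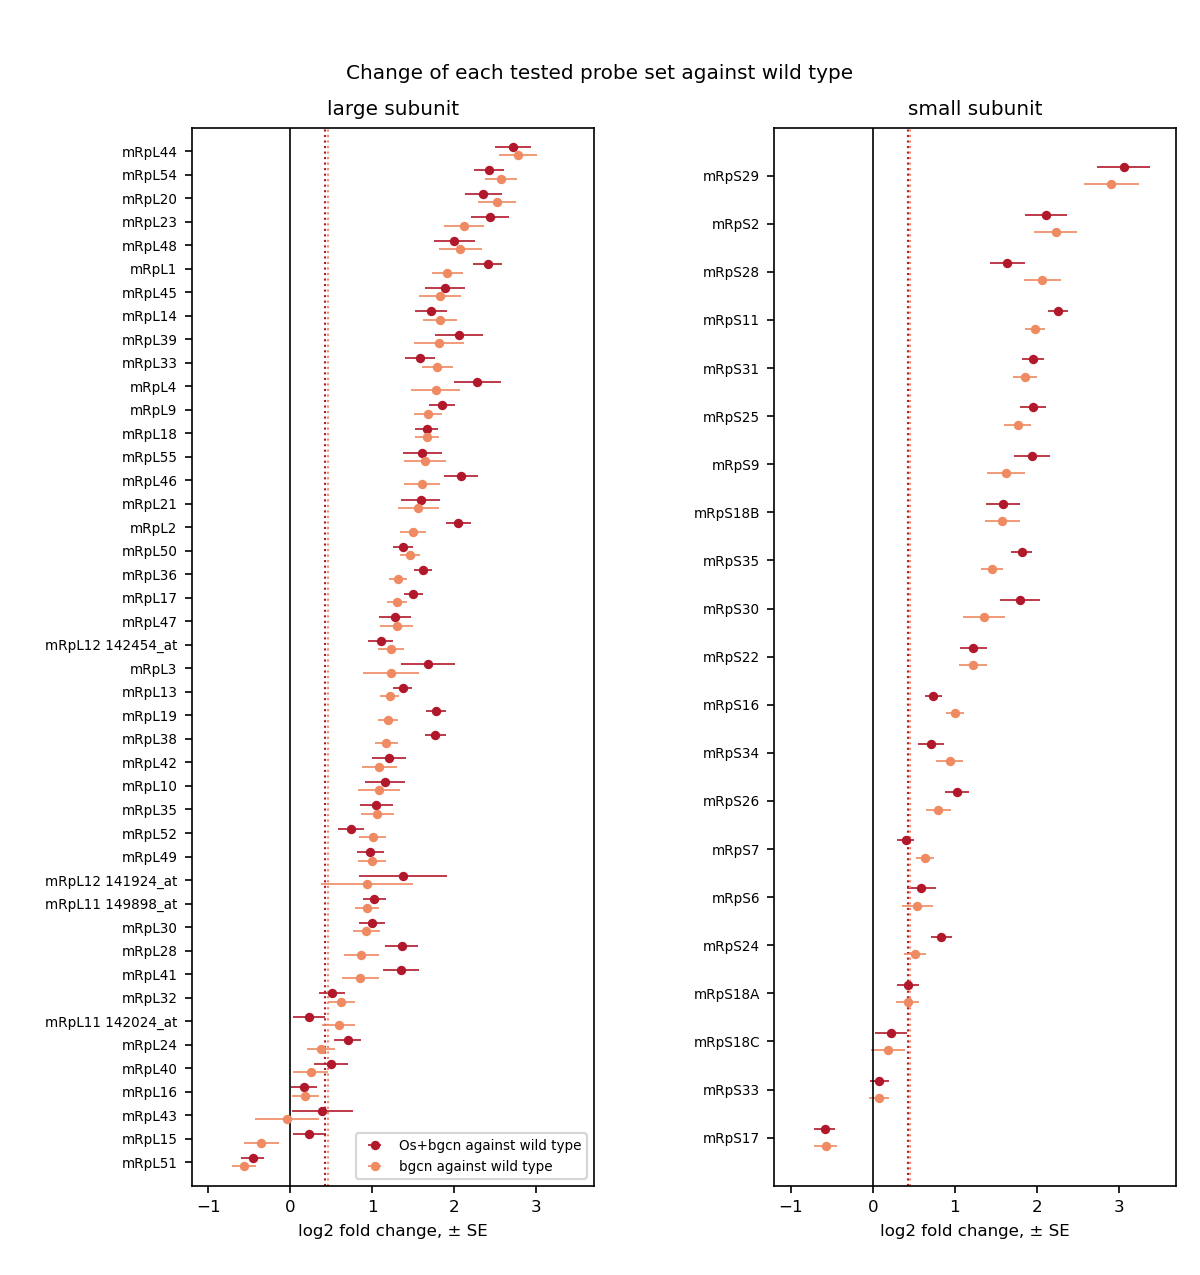
Log2 fold change (points) and its standard error (lines) of the 65 tested probe sets in Os+bgcn (dark red) and bgcn (orange) against wild type, large subunit on the left and small subunit on the right, ordered by the bgcn change. Dotted lines mark the median of all tested probe sets, 0.43 for Os+bgcn and 0.46 for bgcn. Most points lie to the right of these lines at the deposited scaling, and with centring on cytosolic ribosomal proteins the members' medians are -0.12 in Os+bgcn and -0.79 in bgcn.

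Both subunits were higher in the mutants at the deposited scaling, and with centring on cytosolic ribosomal proteins the large and small subunit medians were -0.06 and -0.27 in Os+bgcn and -0.79 and -0.79 in bgcn. In Os+bgcn against wild type 39 of 44 tested large subunit probe sets and 18 of 21 small subunit probe sets rose, and 1 of each fell. The median changes were 1.44 for the large and 1.23 for the small subunit. In bgcn against wild type 37 of 44 large and 18 of 21 small subunit probe sets rose, 1 of each fell, and the medians were 1.23 for the large and 1.22 for the small subunit. The large minus small difference of these medians was 0.21 in Os+bgcn and 0.0037 in bgcn. With single arrays left out its lowest and highest values were 0.15 and 0.31 for Os+bgcn, and -0.094 and 0.16 for bgcn. Without bgcn arrays 1 and 2, whose accessory gland medians were the highest of the bgcn arrays at 10.7 and 9.94, the bgcn difference was 0.13. The difference was not tested, since the members of a subunit share the arrays.

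Members were also divided by number into the bacterial-type and mitochondrion-specific classes, which only approximate the origin. Of the bacterial-type members 32 of 37 rose in Os+bgcn with a median of 1.37, and 31 of 37 in bgcn with a median of 1.21. Of the mitochondrion-specific members 25 of 28 rose in Os+bgcn with a median of 1.49, and 24 of 28 in bgcn with a median of 1.33. With centring on cytosolic ribosomal proteins the bacterial-type medians were -0.12 in Os+bgcn and -0.81 in bgcn, and the mitochondrion-specific medians were -0.0035 in Os+bgcn and -0.69 in bgcn. The lowest class median was that of the 10 bacterial-type small subunit members, 0.67 in Os+bgcn and 0.82 in bgcn, of which 8 rose and 1 fell in each, and it was -0.83 in Os+bgcn and -1.2 in bgcn with that centring. The 11 mitochondrion-specific small subunit members had medians of 1.64 in Os+bgcn and 1.36 in bgcn, with 10 higher in each mutant, or 0.14 in Os+bgcn and -0.66 in bgcn with that centring.

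Members with the largest changes came from both subunits. mRpS29 is the only GTP-binding protein of the small subunit and is known in mammals as DAP3. Its signal on the Os+bgcn arrays was 526 at the lowest, 551.2 at the median and 694.8 at the highest, and 444.2, 504.6, 625.5, 543.4 and 462.6 on the bgcn arrays, against 163.1, 88.4, 10.9, 63.6 and 18 on the wild-type arrays. No mutant array came near a wild-type array, and the wild-type arrays differed widely among themselves. The log2 change was 3.06 ± 0.32 (SE, adjusted p = 3.9e-08, limma) in Os+bgcn and 2.91 ± 0.34 (adjusted p = 1.8e-07, limma) in bgcn.

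mRpL44, a protein with an RNase III fold near the tunnel exit, had signals of 231.8, 251.75 and 297.8 (lowest, median, highest) in Os+bgcn and of 203, 322.8, 306, 225.4 and 311.4 in bgcn, against 12.5, 40.2, 55.1, 16 and 8.9 in wild type. It rose by 2.72 ± 0.22 (adjusted p = 8.9e-10, limma) in Os+bgcn and by 2.78 ± 0.23 (adjusted p = 1.5e-09, limma) in bgcn. Since its wild-type signals of 12.5, 16 and 8.9 lay below the added 18.8, these changes, too, depend on that amount. The mitochondrion-specific mRpL54 was dimmer than the added 18.8 on every wild-type array, at 7.9, 11.1, 13.5, 6.3 and 11.1. In Os+bgcn its signal was 87.1, 142.35 and 175.4 (lowest, median, highest), and in bgcn 179.6, 168.9, 163.6, 125.8 and 124.9. Its changes were 2.42 ± 0.19 in Os+bgcn (adjusted p = 3.4e-10, limma) and 2.57 ± 0.19 in bgcn (adjusted p = 3.3e-10, limma), values that depend on the amount added before taking log2. As said above, mRpL54 was tested only through its signal in the mutants.

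mRpL20, whose bacterial counterpart binds the large ribosomal RNA early in assembly, had signals of 139.5, 206.45 and 264.4 (lowest, median, highest) in Os+bgcn, 142.2, 130.1, 328.1, 313.5 and 284.6 in bgcn and 26.6, 22, 25.5, 26.7 and 17.5 in wild type. All mutant arrays were far above the wild-type arrays, and bgcn arrays 1 and 2 lay below the other bgcn arrays. It rose by 2.35 ± 0.23 (adjusted p = 1e-08, limma) in Os+bgcn and by 2.52 ± 0.24 (adjusted p = 8.2e-09, limma) in bgcn. No wild-type array of mRpL20 was above the filter, so it was tested only through its signal in the mutants. mRpS2 is the counterpart of a bacterial protein at the mRNA path of the small subunit. Its signal was 237.4, 324.3 and 504.3 (lowest, median, highest) in Os+bgcn, 328.1, 308.6, 359.6, 388.5 and 420.5 in bgcn and 108.4, 60.4, 120.8, 24.1 and 37.2 in wild type, and it rose by 2.11 ± 0.26 in Os+bgcn (adjusted p = 3.3e-07, limma) and 2.23 ± 0.27 in bgcn (adjusted p = 3.2e-07, limma).

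As members at the exit tunnel, mRpL22, mRpL23, mRpL24, mRpL44 and mRpL45 were grouped after their values were seen. The grouping is not a full list of the members near the tunnel, so its medians hold for these genes only. Of the 4 tested, 4 rose in Os+bgcn and 3 in bgcn, with medians of 2.16 in Os+bgcn and 1.97 in bgcn, or 0.66 in Os+bgcn and -0.05 in bgcn with centring on cytosolic ribosomal proteins. mRpL23, whose bacterial counterpart is the docking site of factors that act on the new protein, had signals of 387.2, 570.1 and 939.5 (lowest, median, highest) in Os+bgcn, 405.3, 459.6, 508.6, 463.8 and 562.5 in bgcn and 99.1, 68.3, 74.1, 195.3 and 77 in wild type. The groups did not overlap, and the changes were 2.43 ± 0.23 in Os+bgcn (adjusted p = 8.5e-09, limma) and 2.12 ± 0.24 in bgcn (adjusted p = 1.4e-07, limma). mRpL45, which in mammals helps to hold the ribosome at the inner membrane, rose by 1.88 ± 0.24 in Os+bgcn (adjusted p = 7.7e-07, limma) and 1.83 ± 0.25 in bgcn (adjusted p = 2.3e-06, limma). mRpL24 rose in Os+bgcn by 0.70 ± 0.17 (adjusted p = 0.00081, limma), and its change in bgcn was 0.37 ± 0.17 (adjusted p = 0.062, limma), which became a call without Os+bgcn array 1 or bgcn array 2 or 5, without bgcn arrays 1 and 2, with array quality weights and with only both groups in the fit.

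Members at the stalks of the large subunit, of which mRpL1 forms its own, were mRpL1, mRpL10, mRpL11 and mRpL12, grouped in the same way. Of their 6 probe sets 5 rose in each mutant, with medians of 1.13 in Os+bgcn and 1.01 in bgcn, or -0.37 in Os+bgcn and -1.01 in bgcn with centring on cytosolic ribosomal proteins. mRpL1 had signals of 239.9, 329.8 and 463.7 (lowest, median, highest) in Os+bgcn, 269.4, 195.7, 222.8, 196.5 and 261.2 in bgcn and 64.3, 42.5, 49.3, 25.4 and 58.3 in wild type, with changes of 2.41 ± 0.18 in Os+bgcn (adjusted p = 2.5e-10, limma) and 1.92 ± 0.19 in bgcn (adjusted p = 1.9e-08, limma). mRpL11 and mRpL12 are the only member genes with more than 1 probe set, and in both genes the probe sets gave different calls. The mRpL11 probe set 149898_at rose by 1.03 ± 0.14 in Os+bgcn (adjusted p = 1.3e-06, limma) and 0.94 ± 0.14 in bgcn (adjusted p = 8.2e-06, limma). Probe set 142024_at of mRpL11 changed by 0.23 ± 0.19 in Os+bgcn (adjusted p = 0.31, limma) and by 0.59 ± 0.20 in bgcn (adjusted p = 0.013, limma), a call that ended without bgcn arrays 1 and 2, with quantile normalization and with centring on array medians.

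The mRpL12 probe set 142454_at rose by 1.10 ± 0.15 in Os+bgcn (adjusted p = 1.7e-06, limma) and 1.23 ± 0.16 in bgcn (adjusted p = 7.8e-07, limma). On probe set 141924_at of mRpL12 the signals ran from 71.4 to 538.4 in Os+bgcn, from 21.5 to 367 in bgcn and from 21.1 to 173.8 in wild type, so that all groups overlapped. Its changes were 1.37 ± 0.54 in Os+bgcn (adjusted p = 0.029, limma) and 0.94 ± 0.56 in bgcn (adjusted p = 0.15, limma). The first of these calls ended without Os+bgcn array 1, 4 or 6 or wild-type array 3, 4 or 5 and with quantile normalization or centring on array medians. The second became a call without bgcn array 3 and with the replicate block (adjusted p = 0.0078, limma).

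At the peptidyl transferase centre, where peptide bonds are formed, 3 of 4 members (mRpL2, mRpL3, mRpL4 and mRpL16, again grouped after their values were seen) rose in each mutant, with medians of 1.87 in Os+bgcn and 1.36 in bgcn, or 0.37 in Os+bgcn and -0.66 in bgcn with centring on cytosolic ribosomal proteins. mRpL4 averaged 190 ± 43.3 in Os+bgcn (SD, n = 6) and 140 ± 59.6 in bgcn (SD, n = 5), against 23.7 ± 7.51 in wild type (SD, n = 5), with bgcn array 5 at 33.6 inside the wild-type range of 17 to 36.6. This probe set, too, was tested only through its signal in the mutants. The exception was mRpL16, whose bacterial counterpart helps to seat the incoming tRNA. It had signals of 320.6, 383.05 and 544.3 (lowest, median, highest) in Os+bgcn, 437.5, 369.4, 350.5, 315.2 and 529.9 in bgcn and 295.4, 356.7, 307.1, 348.3 and 431.3 in wild type. The 3 groups overlapped, and the changes were 0.17 ± 0.16 in Os+bgcn (adjusted p = 0.36, limma) and 0.18 ± 0.16 in bgcn (adjusted p = 0.33, limma).

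**Figure D3:**
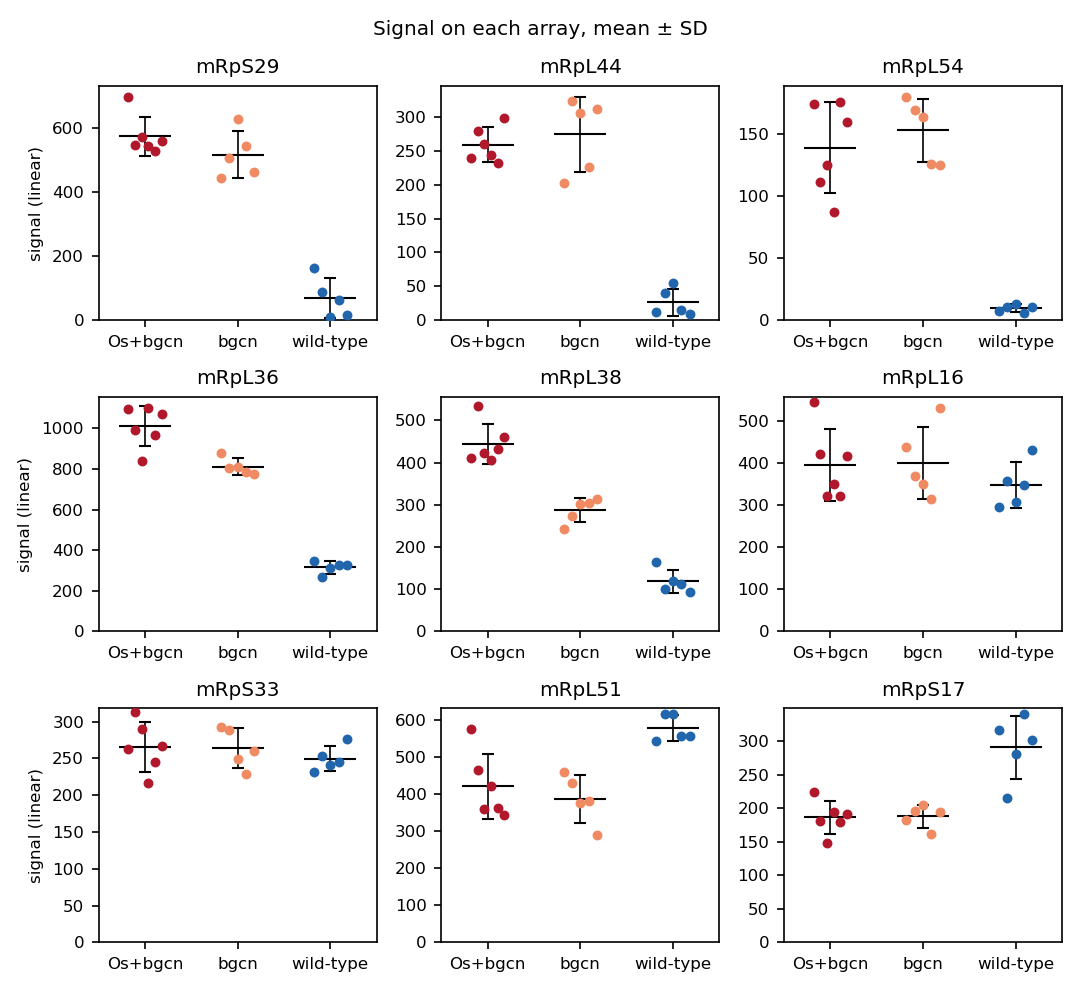
Signal (linear scale, from 0) of 9 members on each Os+bgcn (dark red), bgcn (orange) and wild-type (blue) array, with group means (wide lines) and SD (bars), n = 6, 5 and 5. mRpS29, mRpL44, mRpL54, mRpL36 and mRpL38 are above wild type on every mutant array at the deposited scaling (mRpL36 and mRpL38 turn lower in bgcn with centring on cytosolic ribosomal proteins); mRpL16 and mRpS33 overlap between all groups, and mRpL51 and mRpS17 are lower on most mutant arrays.

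Members were found below wild type in 1 case per subunit. mRpL51 had signals of 342.9, 391.7 and 576.1 (lowest, median, highest) in Os+bgcn and 460.2, 431.2, 376.1, 380.7 and 290.5 in bgcn, against 543.1, 615.7, 616.2, 558.2 and 556.7 in wild type. Every bgcn array was below every wild-type array, and 1 Os+bgcn array reached into the wild-type range. It changed by -0.46 ± 0.14 (adjusted p = 0.0061, limma) in Os+bgcn and by -0.57 ± 0.15 (adjusted p = 0.0018, limma) in bgcn. mRpS17 has a bacterial counterpart that binds the small ribosomal RNA early in assembly. Its signal was 147.9, 186.25 and 224 (lowest, median, highest) in Os+bgcn and 181.8, 196.1, 205.4, 161.9 and 194.6 in bgcn, against 316.4, 215.9, 280.6, 339.7 and 301.1 in wild type, with changes of -0.59 ± 0.13 in Os+bgcn (adjusted p = 0.00055, limma) and -0.57 ± 0.14 in bgcn (adjusted p = 0.0011, limma). The groups were apart except that wild-type array 2 of mRpS17 reached into the Os+bgcn range. Both genes kept a lower call in each mutant under every alternative run.

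In RefSeq, 39 of 66 mitochondrial ribosomal protein genes (the 64 member genes, tko and bonsai) overlap another protein-coding gene, among them mRpL51 with PIG-U, mRpL16 with arm, mRpL15 with Psn and mRpS29 with qkr58E-2, while mRpS17 overlaps none. The positions of the probes were not analysed here, so the part of such neighbours in a probe set's signal was not tested.

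The 5 members called in neither mutant were mRpL15, mRpL16, mRpL43, mRpS18C and mRpS33. mRpL15 changed by 0.23 ± 0.20 in Os+bgcn (adjusted p = 0.32, limma) and by -0.36 ± 0.21 in bgcn (adjusted p = 0.14, limma), and with centring on array medians it was the third member called lower in bgcn, at -0.58 (adjusted p = 0.024, limma). mRpS33 had signals of 216.4, 265.05 and 313.6 (lowest, median, highest) in Os+bgcn, 293.2, 287.9, 249.5, 228.4 and 259.8 in bgcn and 231.3, 253.6, 240.9, 245.5 and 276.6 in wild type. Its changes were 0.08 ± 0.12 in Os+bgcn (adjusted p = 0.56, limma) and 0.07 ± 0.12 in bgcn (adjusted p = 0.62, limma), with narrow spread within each group. mRpL43 changed by 0.39 ± 0.37 in Os+bgcn (adjusted p = 0.36, limma) and -0.04 ± 0.39 in bgcn (adjusted p = 0.93, limma) and spread widely, from 64.9 to 227.3 in Os+bgcn, from 36.3 to 201.6 in bgcn and from 30.3 to 183.3 in wild type. mRpL40 passed narrowly in Os+bgcn at 0.49 ± 0.20 (adjusted p = 0.036, limma) and did not pass in bgcn at 0.25 ± 0.21 (adjusted p = 0.30, limma). Its call ended without Os+bgcn array 1, 2, 4 or 5 or wild-type array 2, 4 or 5 and with quantile normalization or centring on array medians.

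The 3 paralogs of the bacterial protein S18 differed in size of change. mRpS18B had signals of 92.5, 138.3 and 183.8 (lowest, median, highest) in Os+bgcn, 158.9, 86, 157.2, 134.4 and 140.8 in bgcn and 19.3, 47.9, 23.8, 44.5 and 29.9 in wild type, and it rose by 1.59 ± 0.21 in Os+bgcn (adjusted p = 9.1e-07, limma) and 1.58 ± 0.22 in bgcn (adjusted p = 2e-06, limma). mRpS18A rose by 0.43 ± 0.13 in Os+bgcn (adjusted p = 0.007, limma) and 0.43 ± 0.14 in bgcn (adjusted p = 0.0096, limma), calls that ended with arrays centred on their medians. mRpS18C changed by 0.23 ± 0.20 in Os+bgcn (adjusted p = 0.31, limma) and 0.19 ± 0.20 in bgcn (adjusted p = 0.43, limma). In mammals the products of the S18A and S30 genes sit in the large subunit in spite of their names. mRpS30 rose by 1.80 ± 0.24 in Os+bgcn (adjusted p = 1.5e-06, limma) and 1.36 ± 0.26 in bgcn (adjusted p = 8.5e-05, limma), and counting these genes with the large subunit left both subunit medians as they were.

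Both genes under other symbols were higher in the mutants, and with centring on cytosolic ribosomal proteins neither passed the test. tko encodes the decoding-centre protein S12, and its mutants are known for paralysis after mechanical shock. It averaged 136 ± 34.2 in Os+bgcn (SD, n = 6) and 170 ± 45.7 in bgcn (SD, n = 5), against 28.1 ± 17.4 in wild type (SD, n = 5), with changes of 1.78 ± 0.23 in Os+bgcn (adjusted p = 9.6e-07, limma) and 2.05 ± 0.24 in bgcn (adjusted p = 2.8e-07, limma). bonsai, the S15 gene, averaged 730 ± 97.7 in Os+bgcn and 648 ± 63.5 in bgcn, against 158 ± 13.9 in wild type, with changes of 2.07 ± 0.11 in Os+bgcn (adjusted p = 2e-12, limma) and 1.91 ± 0.12 in bgcn (adjusted p = 1.8e-11, limma). The dimmest member, mRpL22, averaged 51.6 ± 26.6 in Os+bgcn, 37.3 ± 9.60 in bgcn and 20.9 ± 9.58 in wild type.

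Other genes of mitochondrial gene expression were set beside the members. Of 10 tested genes for transcription, RNA stability and replication of the mitochondrial genome, 10 rose in each mutant, with medians of 1.68 in Os+bgcn and 1.13 in bgcn, or 0.18 in Os+bgcn and -0.89 in bgcn with centring on cytosolic ribosomal proteins. The genes named from these lists were chosen after their values were seen. mtSSB, the single-strand binding protein of mitochondrial DNA, averaged 960 in Os+bgcn and 877 in bgcn, against 69.0 in wild type, with changes of 3.48 ± 0.13 in Os+bgcn (adjusted p = 3.9e-15, limma) and 3.34 ± 0.13 in bgcn (adjusted p = 1.8e-14, limma). TFAM, which packages mitochondrial DNA, rose by 1.59 ± 0.14 in Os+bgcn (adjusted p = 4.1e-09, limma) and 1.26 ± 0.15 in bgcn (adjusted p = 2.7e-07, limma), its bgcn value turning to -0.76 with that centring. PolrMT, the mitochondrial RNA polymerase, rose by 0.37 ± 0.13 in Os+bgcn (adjusted p = 0.016, limma) and 0.40 ± 0.14 in bgcn (adjusted p = 0.012, limma) at the deposited scaling, and its values were -1.13 in Os+bgcn and -1.62 in bgcn with centring on cytosolic ribosomal proteins. Its call in Os+bgcn ended with quantile normalization (0.24, adjusted p = 0.11, limma) and with centring on array medians (0.14, adjusted p = 0.35, limma), and its call in bgcn ended with centring on array medians (0.18, adjusted p = 0.27, limma).

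Factors that work with the ribosome moved in both directions, as did the table as a whole. Of 6 tested mitochondrial translation factors 4 rose and 2 fell in Os+bgcn, beside 47.3% higher and 24.2% lower over all tested probe sets. In bgcn 3 rose and 2 fell, beside 47.2% and 22.6%. One of those that rose, mIF2, was at 9.9 ± 6.9 in wild type (SD, n = 5) and was tested only through its signal in the mutants. With centring on cytosolic ribosomal proteins 1 rose and 2 fell in Os+bgcn and 1 rose and 4 fell in bgcn. The elongation factor Tu paralogs moved in opposite directions under both scalings. mEFTu1 averaged 408 in Os+bgcn and 350 in bgcn, against 24.2 in wild type, and rose by 3.37 ± 0.32 in Os+bgcn (adjusted p = 1e-08, limma) and 3.00 ± 0.34 in bgcn (adjusted p = 1.2e-07, limma). mEFTu2 averaged 299 in Os+bgcn and 271 in bgcn, against 1204 in wild type, and changed by -1.95 ± 0.10 in Os+bgcn (adjusted p = 6e-13, limma) and -2.08 ± 0.10 in bgcn (adjusted p = 5.2e-13, limma). mEFTs, the nucleotide exchange factor of Tu, averaged 216 in Os+bgcn and 222 in bgcn, against 1578 in wild type, with changes of -2.78 ± 0.13 in Os+bgcn (adjusted p = 8.7e-14, limma) and -2.73 ± 0.13 in bgcn (adjusted p = 2.7e-13, limma).

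Mitochondrial aminoacyl-tRNA synthetases, which load tRNAs with amino acids, also moved in both directions. Of 13 tested probe sets 8 (61.5%) rose and 3 (23.1%) fell in Os+bgcn with a median of 1.12, beside 47.3% and 24.2% of all tested probe sets. In bgcn 8 (61.5%) rose and 4 (30.8%) fell with a median of 0.73, beside 47.2% and 22.6%. With centring on cytosolic ribosomal proteins 5 fell in Os+bgcn and 9 in bgcn, and the medians were -0.38 in Os+bgcn and -1.29 in bgcn. TrpRS-m averaged 109 in Os+bgcn and 88.5 in bgcn, against 1418 in wild type, and changed by -3.53 ± 0.18 in Os+bgcn (adjusted p = 4.1e-13, limma) and -3.76 ± 0.18 in bgcn (adjusted p = 4e-13, limma). LeuRS-m averaged 125 in Os+bgcn and 106 in bgcn, against 17.4 in wild type, and rose by 2.05 ± 0.22 in Os+bgcn (adjusted p = 5e-08, limma) and 1.84 ± 0.23 in bgcn (adjusted p = 5e-07, limma), its bgcn value turning to -0.18 with that centring. With a wild-type SD of 12.1 (n = 5), no wild-type array of LeuRS-m was above the filter, so it was tested only through its signal in the mutants. The same holds for AsnRS-m (16.9 ± 8.8 in wild type, SD) and IleRS-m (23.8 ± 10.3 in wild type, SD). The 2 probe sets of MetRS-m disagreed in bgcn, at -0.83 ± 0.35 and 1.06 ± 0.26 (adjusted p = 0.039 and 0.0013, limma), and with centring on cytosolic ribosomal proteins both were lower, at -2.85 and -0.96. CysRS-m averaged 96.7 in Os+bgcn and 80.1 in bgcn, against 811 in wild type, with changes of -2.86 ± 0.14 in Os+bgcn (adjusted p = 3.2e-13, limma) and -3.07 ± 0.15 in bgcn (adjusted p = 2.7e-13, limma).

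Nuclear genes of oxidative phosphorylation encode the partners of the proteins that the mitochondrial ribosome makes. Of 49 probe sets 24 (49.0%) rose and 9 (18.4%) fell in Os+bgcn, beside 47.3% and 24.2% of all tested probe sets. In bgcn 30 (61.2%) rose and 7 (14.3%) fell, beside 47.2% and 22.6%. The medians were 0.35 in Os+bgcn and 0.53 in bgcn, beside 0.43 in Os+bgcn and 0.46 in bgcn over all tested probe sets. With centring on cytosolic ribosomal proteins these medians were -1.15 in Os+bgcn and -1.49 in bgcn. Of 37 cytosolic ribosomal protein probe sets 33 rose and 2 fell in Os+bgcn, and 35 rose and 2 fell in bgcn.

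**Figure D4:**
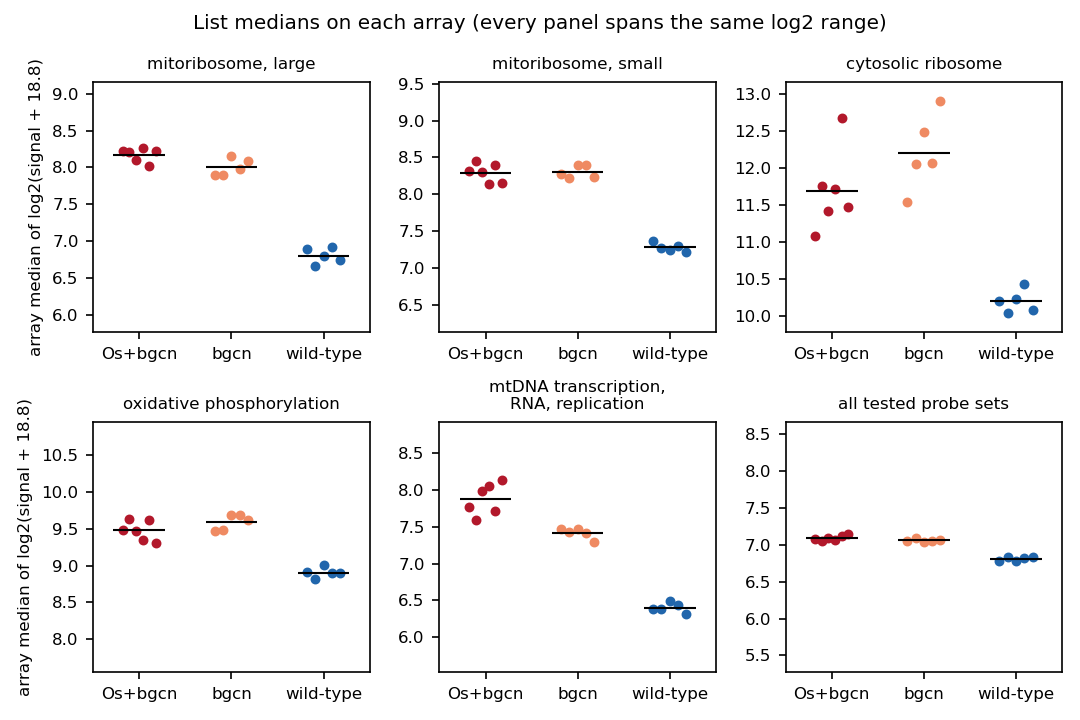
Median log2(signal + 18.8) of 6 probe set lists on each Os+bgcn (dark red), bgcn (orange) and wild-type (blue) array, with group means as lines; the panels span the same log2 range at different heights. Large subunit medians are 8.02 to 8.26 in Os+bgcn, 7.90 to 8.15 in bgcn and 6.67 to 6.92 in wild type at the deposited scaling. The cytosolic ribosome list rises more (11.1 to 12.7 in Os+bgcn, 11.5 to 12.9 in bgcn and 10.0 to 10.4 in wild type). With centring on that list the large subunit's median change against wild type is -0.06 in Os+bgcn, where the gap closes, and -0.79 in bgcn, where it turns round.

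Between the mutants few members differed. In Os+bgcn against bgcn 6 members rose, 0 fell and 59 did not pass the limma test, beside 11.6% called higher, 8.91% lower and 20.5% in either direction over all tested probe sets. The share of members called higher, 9.23%, was near that of the table. The median change was 0.07, with a range of -0.43 to 0.60, beside 0.03 over all tested probe sets, and 60 of 65 changes lay within 0.5 of 0. The count of 6 fell to 3 without Os+bgcn array 2, 4 or 6, bgcn array 2 or wild-type array 3 or 5, and to 2 without bgcn arrays 1 and 2. By unadjusted p under 0.05, 12 were higher and 2 lower. By adjusted p 1 member was lower with quantile normalization and with array quality weights, in both cases mRpS16, and 1 without bgcn arrays 1 and 2. The last was mRpL20 at -0.60 (adjusted p = 0.035, limma), against -0.17 ± 0.23 with all arrays.

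mRpL38, a protein of the central protuberance of the large subunit in mammals, had signals of 405.4, 426.45 and 533 (lowest, median, highest) in Os+bgcn against 243.4, 273.2, 300.6, 303.1 and 312.7 in bgcn. It rose by 0.60 ± 0.13 (adjusted p = 0.0033, limma). mRpL19, whose bacterial counterpart lies between the subunits, had signals of 299, 335.25 and 356.8 in Os+bgcn against 207.4, 200.1, 194.2, 223.9 and 252.7 in bgcn, and rose by 0.58 ± 0.12 (adjusted p = 0.0019, limma). These 2 were the members whose Os+bgcn arrays all lay above all bgcn arrays, beside 7.81% of the table, and both calls held under every alternative run. The arrays of mRpS16 were apart in the other direction, beside 5.33% of the table, with -0.27 ± 0.11 (adjusted p = 0.089, limma).

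The other calls were smaller or less steady. mRpL2 rose by 0.55 ± 0.15 (adjusted p = 0.014, limma), and its value was 0.36 (adjusted p = 0.13, limma) without bgcn arrays 1 and 2. mRpS35 rose by 0.36 ± 0.13 (adjusted p = 0.048, limma), a call that ended in 13 of 16 fits with 1 array left out. The brightest member, mRpL36, had signals of 840, 1033.3 and 1102.5 (lowest, median, highest) in Os+bgcn, 880.7, 805.8, 809.9, 787.2 and 774.7 in bgcn and 347.5, 265.9, 309.8, 329.2 and 328.5 in wild type. It was 0.31 ± 0.11 higher in Os+bgcn than in bgcn (adjusted p = 0.046, limma), a call that ended in 12 of 16 fits with 1 array left out. mRpL15 was 0.59 ± 0.20 higher (adjusted p = 0.047, limma), with bgcn array 1 at 90.8 and the other bgcn arrays at 219.4 to 272.9, and its value was 0.34 (adjusted p = 0.11, limma) without that array. The call of mRpL15 ended in 13 of 16 fits with 1 array left out.

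**Figure D5:**
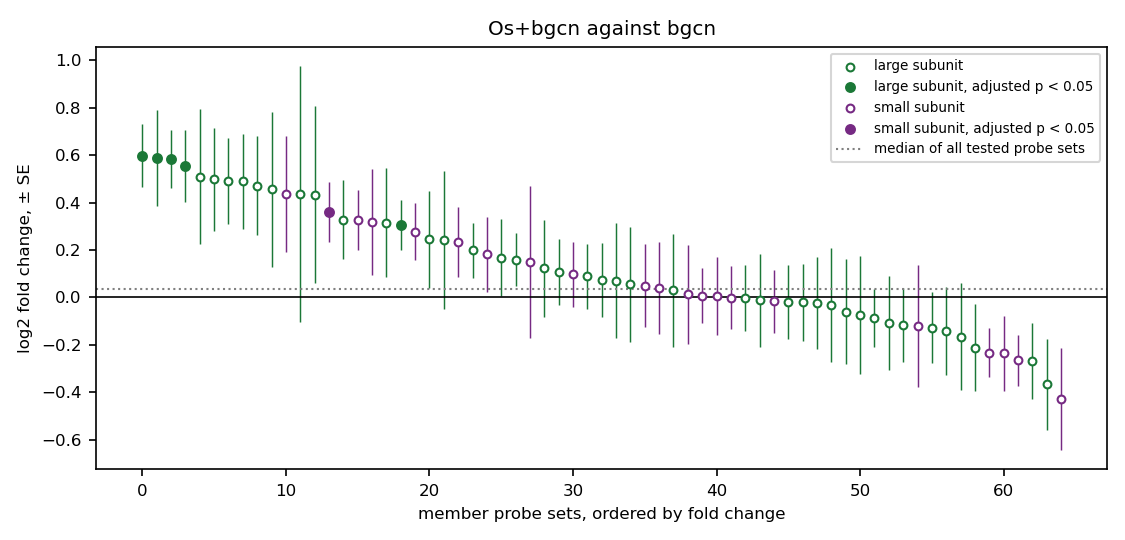
Log2 fold change of Os+bgcn against bgcn (points) with its standard error (lines) for the 65 tested members, ordered by size, large subunit in green and small subunit in purple; filled points have an adjusted p under 0.05. The 6 filled points lie above 0 and 60 of 65 points lie within 0.5 of 0; with centring on cytosolic ribosomal proteins the median moves from 0.07 to 0.60.

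In the same comparison 5 of 37 cytosolic ribosomal protein probe sets fell and 32 did not pass, with a median of -0.32, or 0.20 when arrays were centred on that list. Of the oxidative phosphorylation probe sets 2 (4.08%) rose and 11 (22.45%) fell, with a median of -0.23, or 0.30 under that centring. Over all tested probe sets 11.6% were called higher and 8.91% lower in this comparison. mTerf5, a gene of the mitochondrial genome list, rose by 0.90 ± 0.12 (adjusted p = 2.9e-05, limma), the translocation factor mEFG1 by 0.59 ± 0.18 (adjusted p = 0.024, limma) and IleRS-m by 0.71 ± 0.18 (adjusted p = 0.009, limma). Beside these values, against bgcn the Os+bgcn arrays were higher on 7 of 10 early germline and 6 of 7 cyst probe sets and lower on 16 of 16 accessory gland, 6 of 12 muscle sheath, 3 of 6 hemocyte and 1 of 7 cyst probe sets. Their part in the members' values was not tested.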

How the data were processed

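The authors deposited 1 linear signal intensity for each probe set and array. The submitters' processing notes name MAS5, with no version. The genome build of the array design is not stated, so no coordinates are given. Of 13966 probe sets 12443 carry 1 gene symbol, and the symbols of 12394 of these and of all 66 members were matched by gene identifier. Groups follow the sample titles. Signals were used as log2(signal + 18.8), the pooled 25th percentile, and the 10422 probe sets with 5 or more arrays above 42.9 (pooled 40th percentile) were tested with limma 3.58.1 in R 4.3.3 (1 coefficient per genotype over 16 arrays, intensity trend, two-sided, Benjamini-Hochberg over the table, 0.05). The fit was also run on simulated data in which few probe sets changed, a setting that cannot test the scaling of these arrays. P-values measure the spread between these pooled samples, and the number of arrays limits the precision. Detection calls were not used here. Alternatives were other pseudocounts, filters, normalizations, error models, 1 probe set per gene, a replicate block and arrays left out. The text names, per comparison and direction, up to 6 members with the largest called change whose groups do not overlap, for each mutant against wild type up to 6 with the smallest uncalled change, genes with several probe sets, the S18 and S30 genes, tko, bonsai, and the brightest and dimmest member. mRpL2, mRpL4, mRpL24, mRpL45, mRpS16 and mRpS35 lie outside this rule and were added after their values were seen. The members and lists were chosen with earlier results of these data known.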

Additional observations from a re-analysis of the deposited data

Results flagged for a closer look

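1 array stood far from the others in 10 of 111 groups of arrays (102 of the 34 named probe sets and 9 of the medians of all members and of each subunit), where chance gives about 1 in 20. In Os+bgcn these were mRpL24 at 739.7 on array 1 (next 463.4), mRpS29 at 694.8 on array 1 (next 570.2) and tko at 204.3 on array 5 (next 135.5). In bgcn they were mRpL4 at 33.6 on array 5 (next 157.4), mRpS18A at 509 on array 5 (next 379.2) and mRpS30 at 172.6 on array 4 (next 132.8). In wild type they were mRpL15 at 322.2 on array 3 (next 251.3), mRpL23 at 195.3 on array 4 (next 99.1), mRpL4 at 36.6 on array 2 (next 21.9) and mRpS18A at 216.4 on array 5 (next 286).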

How the results depend on the processing

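Counts of members called against wild type stayed within 1.5 times of the reported ones under every alternative except centring on the cytosolic ribosomal proteins. With that centring 7 and 17 members were higher and lower in Os+bgcn and 1 and 35 in bgcn, the medians were -0.12 in Os+bgcn and -0.79 in bgcn, and between the mutants 14 were higher with a median of 0.60. Named values whose direction turned there were, in Os+bgcn against wild type, mRpL43 -1.10, mRpS33 -1.42, mRpL16 -1.33, mRpS18C -1.27, mRpL40 -1.0, mRpL15 -1.26, mRpL11 -1.27 and -0.47, mRpL12 -0.12 and -0.39, mRpS18A -1.07, mRpL24 -0.80 and mRpS16 -0.76. In bgcn against wild type they were mRpL38 -0.85, mRpL19 -0.83, mRpS33 -1.95, mRpL16 -1.83, mRpS18C -1.83, mRpL40 -1.77, mRpL1 -0.10, mRpL11 -1.43 and -1.08, mRpL12 -1.08 and -0.79, mRpS18A -1.59, mRpS18B -0.44, mRpS30 -0.66, mRpL36 -0.70, bonsai -0.11, mRpL2 -0.52, mRpL4 -0.24, mRpL24 -1.65, mRpL45 -0.19, mRpS16 -1.01 and mRpS35 -0.56. The list subtracted by this centring had a median change of 1.62 in Os+bgcn and 2.02 in bgcn at the deposited scaling. The median moved to 1.15 in Os+bgcn and 1.00 in bgcn with array-median centring, to 1.67 in Os+bgcn and 1.37 in bgcn with a pseudocount of 1, and to 1.07 in bgcn with the 40th percentile as pseudocount. Between the mutants 3 members were higher with no filter, no intensity trend or a pseudocount of 1, and 2 without bgcn arrays 1 and 2. There 1 was lower without those arrays, with array quality weights and with quantile normalization. The large minus small difference in bgcn was 0.13 without bgcn arrays 1 and 2. The causes were not tested. With single arrays left out, 55 to 57 members were higher and 2 to 2 lower in Os+bgcn (median 1.37 to 1.51), 55 to 56 and 2 to 2 in bgcn (median 1.22 to 1.29), and 3 to 6 and 0 to 0 between the mutants (median 0.06 to 0.12). The subunit difference was 0.15 to 0.31 for Os+bgcn against wild type, -0.094 to 0.16 for bgcn against wild type and 0.01 to 0.11 between the mutants. Same-numbered arrays of different groups had deviations correlated at -0.11 to 0.20. Arrays with different numbers were not compared, so whether the numbers pair the samples was not tested. With the number as a replicate block, in which Os+bgcn array 6 has no partner, 57 members were higher in Os+bgcn, 56 in bgcn and 4 between the mutants.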
